A study of Mus musculus with 3 samples.

Results

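The comparison set ovaries of cyclophosphamide-treated mice that had received adipose-derived stem cells (ADSC) directly into both ovaries, the ADSC-ovary group, against ovaries of cyclophosphamide-treated mice that had received no cells, the POF group. For each gene, the log2 ratio of the POF array was subtracted from that of the ADSC-ovary array. It used 2 of the 3 arrays of the series, and 9050 of the 19459 genes on the array met the criterion for being measured, which asked that each array show the gene over background in 1 channel or both, and that the treated channel do so on 1 array or both.

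All mice were C57BL/6, a standard inbred strain. POF stands for premature ovarian failure, which was modelled with cyclophosphamide, an alkylating drug that kills dividing cells and damages follicles; the ADSC-ovary mice carried the same drug treatment plus the cells, the ADSC-iv mice had the cells into a vein, and the untreated mice (WT) had neither drug nor cells. Ovaries were taken 1 week after treatment. On each array the RNA of 1 treated group, amplified and labelled with the red dye Cy5, was hybridised together with RNA of untreated ovaries labelled with the green dye Cy3. The labels give neither the age of the mice, the number of animals behind an array, the doses, the donor of the cells, nor whether the untreated RNA was the same extract on each array. There was 1 array per group and no dye exchange, so no difference below has a replicate check or a p-value. A difference of 1 on the log2 scale (2-fold) was used as the size threshold.

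The ovary is built of follicles, in which granulosa cells surround the oocyte and theca cells supply androgen, and of a vascularised stroma with resident macrophages. Interferon gamma, made by natural killer and T cells, induces a recognisable programme in neighbouring cells: the chemokines that recruit more lymphocytes, the guanylate-binding proteins (GBP) and immunity-related GTPases (IRG), and the machinery of antigen presentation. The transcription factors that carry the interferon signal bind the interferon-stimulated response element (ISRE) and the gamma-activated site (GAS) in promoters, and NF-kB binds the kB site. Mesenchymal cells from fat are studied as grafts because they secrete trophic and immune-modulating factors.

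Promoters of 6 genes with large positive differences are printed because they show which of these elements lie beside the start of transcription. They are the 5 genes of largest difference that had an entry in the promoter table, and Gbp2, which was bright in all channels. The sequences are from RefSeq (GRCm38.p6), run 5′ to 3′ from 250 bases before to 50 bases after the gene's start, and carry in capitals each match, on either strand, to the ISRE core TTCNNTTTC, the GAS TTCNNNGAA, the kB motif GGNNTTTCC or the TATA motif TATAAA. The windows are chr5:92328030-92328329, minus strand (Cxcl9), chr11:82114935-82115234, plus strand (Ccl8), chr10:34127923-34128222, minus strand (Calhm6), chr17:37193642-37193941, plus strand (Ubd), chr3:142594597-142594896, plus strand (Gbp2b) and chr3:142620413-142620712, plus strand (Gbp2).
Cxcl9: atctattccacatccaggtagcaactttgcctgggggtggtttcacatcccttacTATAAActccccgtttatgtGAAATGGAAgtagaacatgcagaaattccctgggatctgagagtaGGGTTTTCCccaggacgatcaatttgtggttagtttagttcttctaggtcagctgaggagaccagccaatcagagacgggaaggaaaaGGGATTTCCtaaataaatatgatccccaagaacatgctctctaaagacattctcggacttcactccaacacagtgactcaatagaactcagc
Ccl8: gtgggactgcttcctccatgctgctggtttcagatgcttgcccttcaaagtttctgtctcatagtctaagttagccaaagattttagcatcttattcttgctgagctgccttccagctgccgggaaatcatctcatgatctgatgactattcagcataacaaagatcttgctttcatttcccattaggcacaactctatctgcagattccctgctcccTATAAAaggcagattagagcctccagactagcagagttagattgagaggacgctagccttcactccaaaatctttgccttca
Calhm6: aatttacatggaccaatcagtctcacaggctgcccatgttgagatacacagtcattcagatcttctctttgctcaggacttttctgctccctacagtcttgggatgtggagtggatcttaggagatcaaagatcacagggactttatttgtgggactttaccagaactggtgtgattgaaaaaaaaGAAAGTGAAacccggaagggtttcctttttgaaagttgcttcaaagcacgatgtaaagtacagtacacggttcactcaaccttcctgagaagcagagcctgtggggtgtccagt
Ubd: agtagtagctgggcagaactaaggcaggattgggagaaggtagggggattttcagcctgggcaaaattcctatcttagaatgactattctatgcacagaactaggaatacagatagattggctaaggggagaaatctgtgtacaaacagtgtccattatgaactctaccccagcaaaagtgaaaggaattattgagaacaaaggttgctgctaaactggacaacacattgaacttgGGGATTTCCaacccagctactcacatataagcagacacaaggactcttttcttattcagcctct
Gbp2b: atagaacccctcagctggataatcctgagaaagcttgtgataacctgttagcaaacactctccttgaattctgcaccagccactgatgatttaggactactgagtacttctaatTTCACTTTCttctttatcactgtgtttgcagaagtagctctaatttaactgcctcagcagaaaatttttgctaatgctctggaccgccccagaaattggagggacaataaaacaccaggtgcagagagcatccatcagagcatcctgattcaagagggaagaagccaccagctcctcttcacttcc
Gbp2: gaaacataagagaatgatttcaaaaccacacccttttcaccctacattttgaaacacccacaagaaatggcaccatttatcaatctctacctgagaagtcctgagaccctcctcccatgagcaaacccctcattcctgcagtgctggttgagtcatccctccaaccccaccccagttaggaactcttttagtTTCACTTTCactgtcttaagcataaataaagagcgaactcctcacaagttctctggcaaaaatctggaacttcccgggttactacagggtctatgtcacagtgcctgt
An ISRE core began at -175 in Cxcl9, at -64 in Calhm6, at -136 in Gbp2b and at -58 in Gbp2, counted from the start. Cxcl9 also held kB matches at -130 and -42 and a TATA match at -195, Ubd held a kB match at -14, and Ccl8 held only a TATA match, at -32. Of the 59 genes that were at least 2-fold higher after ADSC into the ovaries, 41 had a promoter in the table, and 17 of these (41.5%) held an ISRE core, against 8.57% of all 27025 promoters and 7.35% of the 6883 measured genes with one. The GAS was in 7 of the 41 (17.1%, against 8.47% of all), the kB motif in 3 (7.32%, against 5.72%) and TATAAA in 13 (31.7%, against 14.2%). Among the measured genes with a promoter, the shares of these 3 motifs were 7.03%, 5.93% and 7.31%. Of 10 promoters of genes at least 2-fold lower, 1 held an ISRE core. A match describes letters in the window and was not tested as a binding site.

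Few genes differed by 2-fold or more, and they were mostly higher after ADSC injection: 59 (0.652% of the measured genes) were higher and 14 (0.155%) lower. The median difference over all measured genes was 0.0019 and the SD 0.33, with 4547 genes above 0 and 4503 below. Of the 59, 42 were above the untreated RNA already on the POF array, 18 of them by 2-fold or more, and 46 were at least 2-fold above it on the ADSC-ovary array. Of the 59, 17 were below the untreated RNA in POF ovaries. The 59 were chosen by the difference of these arrays, which favours low values on the POF array and high values on the ADSC-ovary array. The split depended on the processing. With each array centred on its median instead of by loess, which shifts the median of all genes by -0.14, 48 genes were higher and 68 lower. In the authors' own log2 values, whose background correction and normalization are not given, 306 were higher and 312 lower.

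The untreated RNA in Cy3 gave a check on each gene, since a ratio difference can come from either channel. Between the 2 arrays, Cy3 differed with an SD of 0.27 over the measured genes, against 0.41 in Cy5 and 0.33 in the ratio, and 389 genes (4.30%) had a Cy3 difference of 0.5 or more in size. The share was larger among the genes past the threshold, with 10 of the 59 higher genes (16.9%) and 1 of the 14 lower genes (7.14%). Of the 59 higher genes, 41 were at least 2-fold higher in Cy5 itself, 51 had a Cy5 difference at least 2 times the size of their Cy3 difference, and in 3 the Cy3 difference made up 0.5 or more of the ratio difference. The Cy3 signal was not above background on either array for 15 of the 59, so that their ratio to untreated tissue is a bound rather than a level. Of the 14 lower genes, 9 were at least 2-fold lower in Cy5 itself, and B3gnt2, a glycosyltransferase, differed by -1.11 in the ratio with a Cy5 difference of -0.02 and a Cy3 difference of 1.08.

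**Figure D1:**
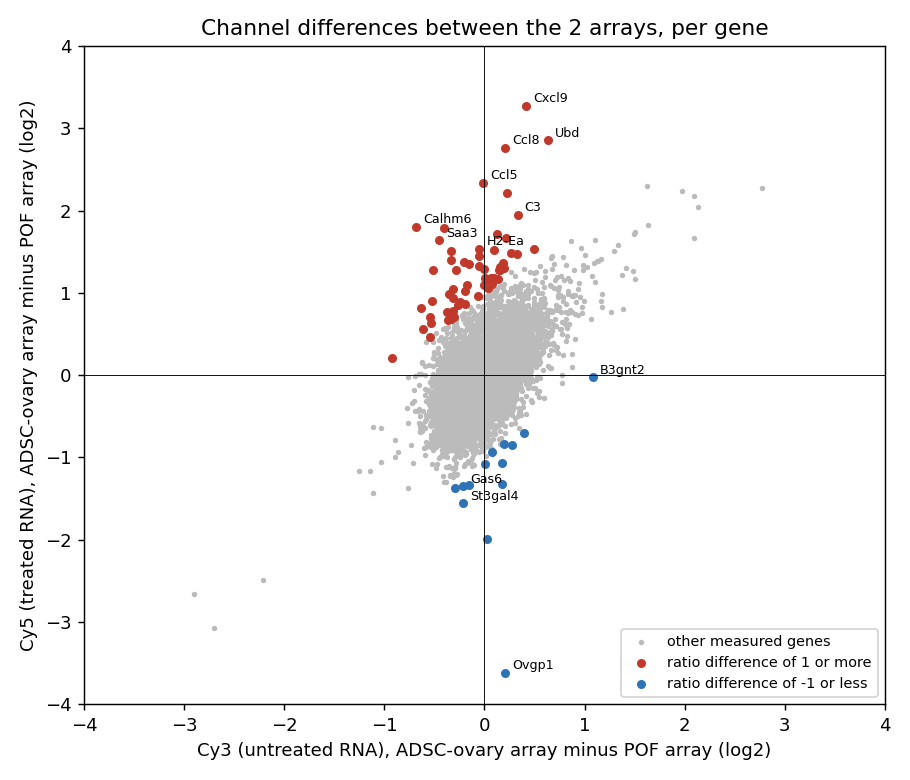
Each point is a measured gene; the horizontal axis is the Cy3 (untreated RNA) difference and the vertical axis the Cy5 (treated RNA) difference between the ADSC-ovary and POF arrays, on the log2 scale. Red and blue points passed 2-fold in the ratio: Cxcl9 sits at a Cy5 difference of 3.27 with 0.41 in Cy3, Ovgp1 at -3.62 with 0.21, and B3gnt2 at -0.02 with 1.08.

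The actin, GAPDH, LDHA and RPL5 control probes, each spotted 48 times, differed by 0.10 ± 0.18, -0.08 ± 0.16, -0.24 ± 0.14 and 0.22 ± 0.19 (SD over spots of the same 2 arrays). For the 2129 genes covered by 2 or more probes, those probes scattered with a median SD of 0.20. These spreads measure spotting and probes, not animals. Part of the ovary markers were above background in both channels of both arrays, among them Gdf9, Zp2 and Zp3 of the oocyte. Inha, Cyp19a1 and Fshr of granulosa cells and Cyp17a1 of theca cells were so too. On the oocyte and granulosa lists, 10 and 4 other genes were above background in neither treated channel, Bmp15 and Nobox of the oocyte among them.

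Chemokines of the CC family, which draw monocytes and lymphocytes into tissue, were the list with the highest median difference. Ccl8 stood at 0.82 above untreated RNA (log2 ratio) on the POF array and at 3.37 on the ADSC-ovary array. The difference was 2.55 (5.87-fold), with Cy3 differing by 0.21. Ccl5, a product of activated T and natural killer cells, stood at 0.29 and 2.65, and its 2 probes differed by 2.10 and 2.62. Both were clearly brighter in the treated channel of the ADSC-ovary array, while the untreated channel differed little. Ccl2, the main monocyte attractant, was at 0.80 and 2.23 (difference 1.43), and its relative Ccl12 at 0.56 and 1.91. Ccl3, made by activated macrophages, was at 0.93 and 1.95, and like Ccl12 it had a dim Cy3 signal on both arrays. Of 10 CC chemokines measured of 19 on the array, 9 were above 0 and 6 reached 2-fold, with a median of 1.02, beside 0.0019 over all genes; the exception was Ccl25, a thymus and gut chemokine, at -0.04. Among the homeostatic chemokines of lymphoid tissue, Ccl21b was at -1.17 on the POF array and -0.15 on the ADSC-ovary array, and Ccl21c at -1.26 and -0.42, so that both were lower than untreated RNA in POF ovaries and nearer to it after ADSC injection. Ccl19, which shares their receptor, was at 0.17 and 0.93, above untreated RNA on both arrays. Ccl21b and Ccl21c are near-identical copies, and their probes may hybridise to each other's transcripts.

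Among CXC chemokines, Cxcl9, a ligand of CXCR3 on activated T cells that interferon gamma induces, had the largest positive difference of all measured genes. Its log2 ratio was 1.68 on the POF array and 4.54 on the ADSC-ovary array, a difference of 2.86 (7.27-fold), although Cy3 was above background only on the second. The other 4 measured members stayed within 0.12 to 0.56, among them Cxcl16 at 0.23 and Cxcl12, the stromal ligand of CXCR4, at 0.12. The median of the 8 measured chemokine receptors was 0.48, between that of the CC ligands (1.02) and that of the CXC ligands (0.35), and no receptor reached 2-fold. Ccr2, the receptor of Ccl2, was at 1.52 and 2.44. Cxcr4 was the member below 0, at 0.68 and 0.33. Cxcr3, the receptor of Cxcl9, was above background in neither treated channel. Of interleukins and related ligands, 9 of 33 were measured, with a median of 0.38; Il1b, the macrophage alarm cytokine, had the largest difference among them, 1.13, with Cy3 dim on both arrays. Outside that list, Il18bp, which binds and neutralises interleukin 18 and is induced by interferon gamma, was at 0.36 and 2.16 (difference 1.80), with Cy3 dim on both arrays and Cy3 itself -0.52. Receptors and JAK-STAT components had a median of 0.03 over 26 genes, and its sign changed under 3 of the 11 alternatives. Socs1, a feedback inhibitor of interferon signalling, differed by 0.63, whereas Tnfrsf1a, the main TNF receptor, was at 0.23 and -0.70 (difference -0.93).

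The interferon-induced GBP and IRG genes were already above untreated RNA in POF ovaries and stood higher after ADSC injection. All 10 measured GBP and IRG GTPases, which attack the vacuoles of intracellular microbes, were above 0, with a median ratio of 1.21 on the POF array, 2.34 on the ADSC-ovary array, and a median difference of 0.63. Gbp2 was at 1.14 and 2.64 (difference 1.51), Gbp6 at 1.21 and 2.32 (1.12) and Gbp2b at 0.93 and 3.13 (2.19), the last with Cy3 dim on both arrays. Gbp3 differed by 0.88, and the IRG members Iigp1, Irgm2, Irgm1, Tgtp1 and Ifi47 by 0.63, 0.62, 0.46, 0.43 and 0.27. The smallest difference, 0.07, was that of the giant GTPase Gvin1. Gbp2b and Gbp2 are close relatives, so cross-hybridisation cannot be told apart from shared change. Of 7 promoters of measured GBP and IRG genes in the table, 6 held the ISRE core.

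The antiviral genes that interferons of type I also induce differed less. The median difference was 0.42, 23 of 26 lay above 0, and 1 passed 2-fold, Ifi205, a DNA-binding protein of the IFI200 family, at 0.87 and 2.38 with Cy3 dim on both arrays. Ifit1, which blocks foreign RNA translation, was at 1.49 and 2.02, and Rsad2 (viperin) at 1.21 and 1.87. Several other interferon-induced genes hardly differed, for example Parp14 at 0.02, Oasl2 at 0.14 and Lgals3bp at -0.08. Ifi202b, another IFI200 gene, differed by 1.59. Among regulators and sensors (median 0.36, 16 of 19 above 0), Zbp1, a sensor of Z-form nucleic acid, was at 2.13 and 3.29, and Irf8, a factor of myeloid cells that interferon gamma induces, at 0.36 and 1.30. Irf1, a direct target of interferon gamma, differed by 0.57, while Irf7, the amplifier of type I interferon, was at 1.41 and 1.27, and Irf3 at 0.13 and -0.38. A ubiquitin-like gene and a checkpoint gene were also among the largest differences: Ubd (FAT10), a ubiquitin-like protein, at 0.08 and 2.30 with Cy3 differing by 0.63, and Cd274 (PD-L1), which restrains T cells, at 0.73 and 2.17. Serpina3f, a serine protease inhibitor, was at 2.03 and 4.02. In Ubd, Cd274 and Serpina3f the Cy3 signal was dim on the POF array. Calhm6, a channel-like protein of immune cells, was at 0.35 and 2.84, with Cy3 dim on the ADSC-ovary array and differing by -0.69.

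**Figure D2:**
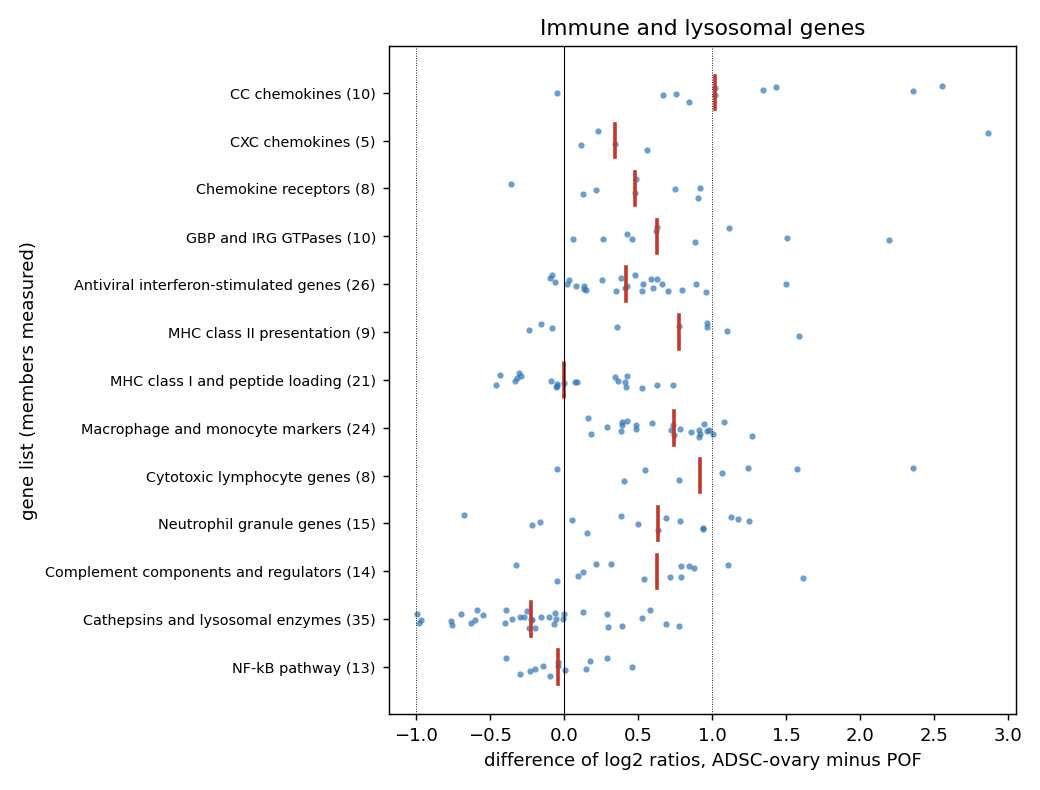
Each point is a measured gene of the list named on the vertical axis, with the number measured in brackets; the horizontal axis is the log2 ratio difference, ADSC-ovary minus POF, the red bar is the list's median, and the dotted lines mark 2-fold. All points of the GBP and IRG and the macrophage lists lie above 0, while 27 of 35 lysosomal genes lie below.

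Antigen presentation divided between its pathways. For class II, which shows peptides to CD4 T cells, 6 of 9 measured genes were above 0 with a median of 0.78: H2-Ea was at 2.40 and 3.98, Cd74, the invariant chain, at 1.51 and 2.61, and the peptide exchangers H2-DMa at 1.74 and 2.70 and H2-DMb2 at 1.38 and 2.35. The C57BL/6 strain is known to carry a deletion in the promoter of H2-Ea, yet its log2 Cy5 was 12.92 and 14.46 on the POF and ADSC-ovary arrays. Its 2 probes differed by 1.05 and 2.12. The H2-Ea values can therefore not be taken as transcript of that gene, and what its probes bound was not tested. The class II count and median above include H2-Ea. H2-Eb1, the beta chain that pairs with H2-Ea, was at 0.26 and 0.03. The lysosomal protease Lgmn was at 0.33 and 0.17. For class I, 10 of 21 genes were above 0 and 11 below, with a median of -0.00 whose sign changed under 5 of the 11 alternatives. Within it, the immunoproteasome subunits Psmb8, Psmb9 and Psmb10 differed by 0.63, 0.41 and 0.43 and B2m, the shared light chain, by 0.53. The heavy chain H2-K1 differed by -0.05 and the peptide transporter Tap1 by -0.32; their ratios on the POF array were 1.56 and 1.33, so they were above untreated RNA in both groups. The class I heavy chains are near-identical copies, and their probes may share transcripts.

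Markers of macrophages and monocytes were higher in all 24 that were measured, of 35 on the array, with a median ratio of 0.58 on the POF array and 1.49 on the ADSC-ovary array and a median difference of 0.74. In all 24 the Cy5 difference was also above 0. Ms4a6d was at 1.76 and 3.03, Lyz2 (lysozyme, close in sequence to Lyz1) at 0.41 and 1.49, and Adgre1, an adhesion receptor used to stain macrophages, at 0.54 and 1.48. The Fc receptor chain Fcer1g differed by 1.01, where Cy3 differed by -0.54, the Fc receptor Fcgr3 by 0.97, the signalling adaptor Tyrobp by 0.91 and Ccr2 by 0.92. Csf1r, the growth factor receptor that all macrophages need, differed by only 0.18, and Spi1, their master regulator, by 0.29. In whole ovary RNA, more cells of a type and more RNA per cell cannot be told apart. Of the 11 markers that were not measured, 5 were above background in the treated channel only on the ADSC-ovary array. A further 3 were so only on the POF array (Cd5l, at least 1.64-fold brighter there, Cd14 and Mrc1), and Itgam, Siglec1 and Vsig4 on neither. Over all unmeasured genes, 823 were so only on the ADSC-ovary array and 394 only on the POF array. Such a call rests on the background of each spot, so the array that passed need not be the brighter. These counts therefore give no direction for the unmeasured markers. Mgl2, a lectin of alternatively activated macrophages and dendritic cells, was at -0.64 and 0.73, and Ly86, a partner of a toll-like receptor relative on myeloid cells, at 1.21 and 2.38.

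Genes of cytotoxic lymphocytes had a median difference of 0.92 over the 8 measured of 25, a list that shares Ccl5 with the chemokines. The granzymes, proteases that killer cells deliver to targets, were at 0.78 and 2.35 (Gzmb) and at 1.11 and 2.36 (Gzma), and the activating receptor Klrk1 at 1.03 and 2.09. For these 3 the untreated channel was dim on both arrays, so their ratio to untreated ovary is a bound. Nkg7 was the exception, at -0.02 and -0.06. Of the 17 other cytotoxic genes, 11 were above background in neither treated channel, Tbx21, Eomes and Gzmk among them. A further 6 were so only on the ADSC-ovary array and 0 only on the POF array, beside 823 and 394 over all unmeasured genes. T cell markers were mostly below detection: 5 of 24 were measured, all above 0 with a median of 0.39, and 14 of the 19 others, Cd3e, Cd4 and Cd28 among them, were above background in neither treated channel. Cd8a, with Cy3 dim on both arrays, was at 0.12 and 0.73 and Thy1, which stromal cells also carry, at -0.88 and -0.07. Of 13 B and plasma cell markers 3 were measured, with a median of 0.26, and Ms4a1 and Cd79a were not above background in either treated channel. Dendritic cell markers had a median of 0.58 over 4 genes, led by Irf8. Hdc, at 0.12, was the only measured one of 19 mast cell and eosinophil genes.

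Neutrophil granule genes were above 0 in 12 of 15 (median 0.64) and lay far above untreated RNA in both groups. S100a8 was at 3.02 and 3.80, with Cy3 dim on both arrays. Its partner S100a9 was at 2.21 and 3.33, but of its difference of 1.13 only 0.20 came from Cy5, with Cy3 at -0.92 and dim on both arrays. Chil3, a chitinase-like protein, was at 1.17 and 2.42 with Cy3 dim on both arrays and differing by -0.55, and its sign was opposite in the authors' own values. Ltf (lactoferrin) went the other way, at 1.77 and 1.10. Ly6g and Mmp8 were not above background in either treated channel. General leukocyte signalling and adhesion genes had a median of 0.43, 16 of 19 above 0; Coro1a was at 1.10 and 1.71, and Cd53 at 1.21 and 1.02.

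Complement and acute-phase genes were higher as well. C3, the central component, was at 0.73 and 2.34 (difference 1.62) and Cfb, of the alternative pathway, at 2.02 and 3.13 with Cy3 dim on the POF array. The C1q chains, which macrophages make, differed by close values of 0.72 (C1qa), 0.79 (C1qb) and 0.85 (C1qc). Over 14 complement genes the median was 0.63, with 12 above 0, and Clu, a complement inhibitor, was the lowest at -0.32. Saa3, a serum amyloid A that inflamed tissues make themselves, was at -1.55 on the POF array, below untreated RNA, and at 0.54 on the ADSC-ovary array. Lcn2 and Hp, which bind bacterial siderophores and haemoglobin, both differed by 0.94. The 20 acute-phase and iron genes had a median of 0.35, and the S100 and annexin genes one of 0.30, with S100a4 at -0.17 and 1.25 and its Cy3 differing by -0.53.

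Some genes had a treated signal above background on 1 of the 2 arrays only, and most of these fall outside the measured set. There were 929 genes above background in Cy5 only on the ADSC-ovary array and 509 only on the POF array, of which 64 and 53 had a Cy5 bound of at least 2-fold. In 18 of the 64 and 40 of the 53 the untreated channel of the same spots differed by 2-fold or more in the same direction. The 5 largest bounds of each direction (Gabarapl1, Strap, Hsf2bp, Tmem14c and Aup1, against Mink1, Dhx29, Ogfr, Emc3 and Dhh) were all of this kind, for example Gabarapl1 with a Cy3 difference of 4.90 and Mink1 with one of -2.74, so those bounds are not specific to the treated RNA. Genes whose Cy3 was dim on both arrays and differed by less than 0.5 numbered 25 and 3 with such a bound. They were picked after their values were seen, and each entered through the array where it was bright, so they are no separate support for the lists above. Among the 25 was Cxcl11, another interferon-induced CXCR3 ligand, with a bound of 6.38-fold brighter Cy5 on the ADSC-ovary array. Bounds there were 3.69-fold for Ifng (interferon gamma itself) and 3.72-fold for Cfd (adipsin). For the macrophage genes Marco and Slamf8 they were 2.65-fold and 2.77-fold. The neutrophil granule gene Mpo had a bound of 2.26-fold and Gbp5 one of 2.18-fold. The 25 also held genes of other kinds, such as Cyp2e1 (2.82-fold), S100g (2.75-fold), Acat3 (2.14-fold) and Zfp787 (2.09-fold). On the POF array the 3 were Plet1, Dcpp2 and BC048546, with bounds of 5.70-fold, 4.42-fold and 2.10-fold. Bounds compare the mean of the bright array with the lowest signal counted as above background, or with the dim signal where higher. The background limit of the dim spot itself was not used and can lie above both. On the POF array the lowest log2 Cy5 counted was 7.18, while Ccl6 at 8.42 was not above background. A bound therefore describes measured brightness and is not a strict minimum.

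**Figure D3:**
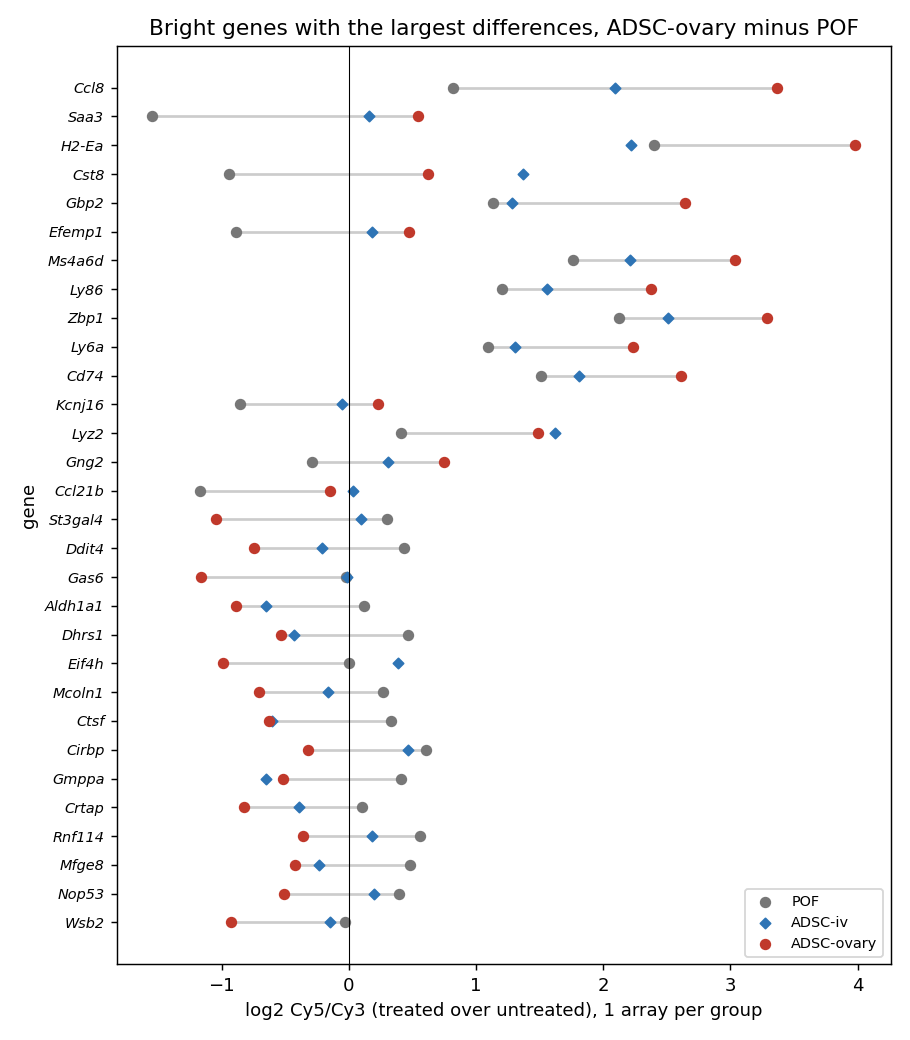
The log2 ratio of treated over untreated RNA on the 3 arrays (horizontal axis) for the 15 highest and 15 lowest genes (vertical axis) among those brighter than the median, above background in all channels, and with a Cy5 difference at least 2 times the size of the Cy3 difference. Grey lines join POF and ADSC-ovary: Saa3 goes from -1.55 to 0.54 and Gas6 from -0.02 to -1.16, with ADSC-iv at 0.16 and -0.01.

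The other genes at least 2-fold higher included bright genes of other functions: Cst8, a cystatin, at -0.94 and 0.62, Kcnj16, a potassium channel, at -0.85 and 0.23, and Gng2, a G protein subunit, at -0.29 and 0.75. Myeloid and lymphoid genes outside the markers above were Ncf1, of the phagocyte oxidase, at 0.92 and 2.09, Scimp, an adaptor of antigen-presenting cells, at 0.60 and 1.89, and Jaml, a junctional adhesion molecule of leukocytes, at 0.26 and 1.72. All 3 had a dim Cy3 on both arrays, and Cy3 differed by -0.62 in Ncf1 and -0.64 in Jaml. Bcl2a1c, Ly6f and Ifi207, members of families with near-identical copies, differed by 1.11, 1.22 and 1.03. Ptgds, which makes prostaglandin D, was at -0.70 and 0.47, the RNA uridylyltransferase Tut4 at -1.07 and 0.14, and the transcription factor Onecut2 at -0.61 and 0.56.

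The genes of lower ratio were fewer and of other kinds. Among bright genes, St3gal4, a sialyltransferase of the Golgi, was at 0.30 and -1.05 (difference -1.35), Ddit4, a stress-induced inhibitor of mTOR, at 0.43 and -0.75, and Gas6 at -0.02 and -1.16. In each the Cy3 difference was 0.21 or less in size. Gas6 and Mfge8, which was at 0.48 and -0.42, are bridging proteins that tie dying cells to the phagocyte. Their receptors differed little, Mertk by 0.18 and Axl by -0.14, and the whole clearance list had a median of -0.08, with 5 of 16 above 0. Tgm2, C1qa and Cd36, which take part in the same process, were higher, by 0.75, 0.72 and 0.55.

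Lysosomal genes were lower while macrophage markers were higher. Of 35 measured genes 27 were below 0, with a median ratio of 0.19 on the POF array and -0.17 on the ADSC-ovary array and a median difference of -0.22, and under the 11 alternatives the median stayed between -0.42 and -0.20. None reached 2-fold. Grn (progranulin) was at 0.60 and -0.39, Mcoln1, the lysosomal calcium channel, at 0.27 and -0.71, and Ctsf at 0.34 and -0.63. Hexa, Ctsa, Asah1 and Gm2a, which serve the breakdown of lipids and proteins, differed by -0.76, -0.69, -0.63 and -0.60. Members that went the other way included Ctss, a cathepsin of antigen-presenting cells, at 1.05 and 1.82, Lipa, the acid lipase, at -1.36 and -0.67, and Npc2, a cholesterol carrier, at -0.08 and 0.50.

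Other bright genes at the low end served general cell work: Eif4h (translation) at 0.00 and -0.99, Crtap (collagen folding) at 0.10 and -0.82, Cirbp (a cold-induced RNA-binding protein) at 0.61 and -0.32, and Rnf114 (a ubiquitin ligase) at 0.56 and -0.36. Among all 14 genes at least 2-fold lower, Nefh, a neurofilament, was at 0.43 and -1.08, and Preb, a Golgi transport factor, at 0.31 and -0.77. All but 1 of the 14 were above 0 on the POF array (13), and 4 were at least 2-fold below untreated RNA on the ADSC-ovary array. The 14 were chosen by the difference of these arrays, which favours high values on the first and low values on the second. The share of all measured genes above 0 on the POF array is not given. Just inside the threshold lay Fcer1g at 1.007 and Aldh1a1 at -1.003, and just outside it Cyp2d10 at 0.9962 and Zfp385b at -0.9951.

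**Figure D4:**
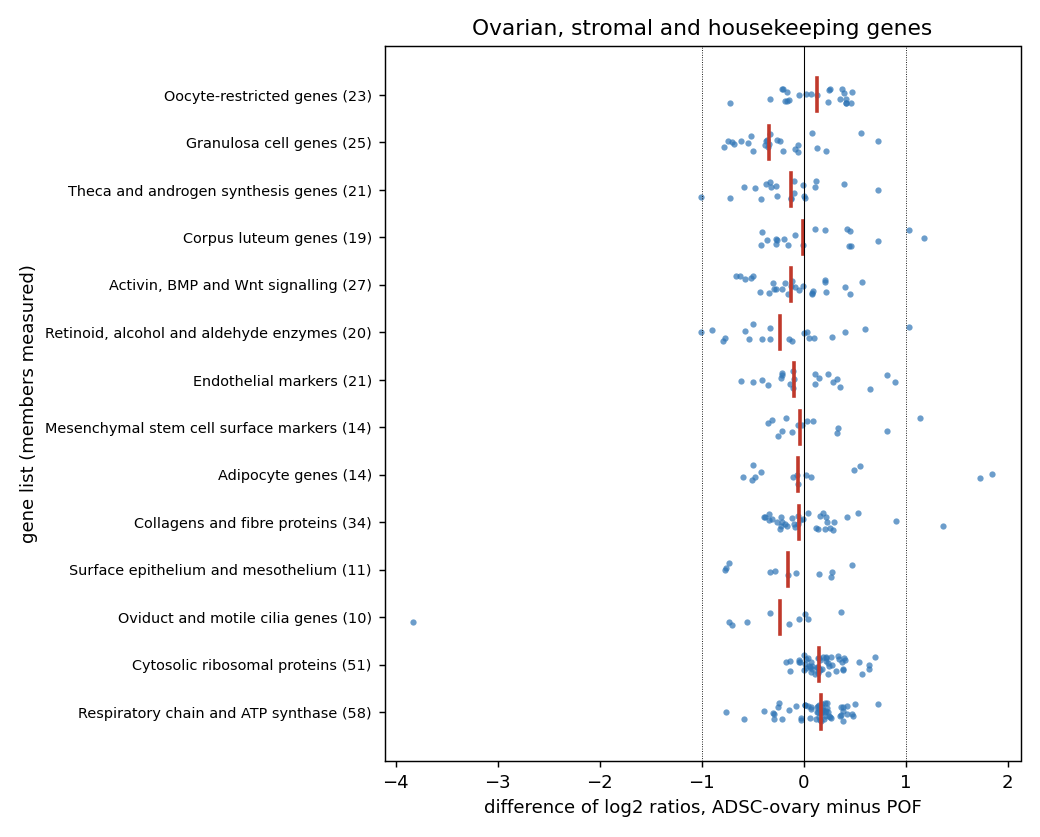
Each point is a measured gene of an ovarian, stromal or housekeeping list (vertical axis, number measured in brackets), placed by its log2 ratio difference, ADSC-ovary minus POF; red bars are medians and dotted lines mark 2-fold. The granulosa median is -0.34 and the ribosomal protein median 0.15, and Ovgp1 lies at -3.83.

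Granulosa cell genes were lower after ADSC injection than after cyclophosphamide alone. Of 25 measured, 20 were below 0, with a median ratio of -0.25 on the POF array, -0.53 on the ADSC-ovary array and a median difference of -0.34, which stayed between -0.44 and -0.31 under the 11 alternatives. None reached 2-fold. The inhibin and activin subunits Inha and Inhba, hormones that growing follicles make, were at -0.61 and -1.31 and at -0.75 and -1.44. Hsd17b1, which completes estradiol synthesis, was at 0.04 and -0.74, and Cyp19a1, the aromatase, at -0.25 and -0.63. The activin antagonist Fst was at -0.87 and -1.39. Fshr, the receptor for follicle-stimulating hormone, was near untreated RNA on both arrays, at 0.00 and -0.06. Members stood out on the other side: Kitl, the ligand by which granulosa cells support the oocyte, at -1.26 and -0.53, and Cdkn1b, a cell cycle inhibitor, at -1.59 and -1.03. Amh, Inhbb and Foxl2 were not measured.

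For theca and androgen synthesis the median was -0.13, and 16 of 21 genes lay below 0. Cyp17a1, the enzyme that makes androgen, was at 0.61 and -0.12, Cyp11a1, which begins steroid synthesis, at 0.41 and -0.01, and Insl3, the theca hormone, at 0.68 and 0.36. These 3 were above untreated RNA in POF ovaries and nearer to it after ADSC injection. Star, the cholesterol transporter of the mitochondrion, went the other way, at -0.44 and 0.29, and Lhcgr differed by 0.11. Aldh1a1, a retinaldehyde dehydrogenase, was at 0.12 and -0.89 (2 probes). With Aldh1a2 (-0.78), Aldh2 (-0.79) and Adh1 (-0.89) it led a list of retinoid, alcohol and aldehyde enzymes with 13 of 20 below 0 and a median of -0.24, in which Akr1c18 was at 0.29 and 1.32. Akr1c18 degrades progesterone in the regressing corpus luteum. The corpus luteum list as a whole had a median of -0.01, and that of ovulation genes 0.12, and both changed sign under at least 1 alternative. Among activin, BMP and Wnt genes 18 of 27 were below 0 (median -0.13), and the cholesterol pathway centred on -0.01, with Fdps differing by 0.67.

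Oocyte genes differed little. Of 23 measured, 14 were above 0 with a median of 0.13, which was below 0 under median centring and in the treated channel alone. Dppa3, Ooep and Figla differed by 0.39, 0.47 and 0.46 (Figla with Cy5 above background only on the ADSC-ovary array), the egg coat genes by -0.05 (Zp1), -0.15 (Zp2) and -0.16 (Zp3), and Gdf9, the growth factor of the oocyte, by 0.24. Kit, which stromal and immune cells also carry, was the lowest, at 0.26 and -0.46. Bmp15, Nobox and Ddx4 were above background in neither treated channel.

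The markers used to define mesenchymal stem cells did not share a direction. Of 14 measured mesenchymal stem cell surface markers 6 were above 0, with a median of -0.04 whose sign changed under 1 of the 11 alternatives, and Pdgfra, Pdgfrb, Eng and Alcam differed by -0.12, -0.01, -0.21 and 0.03, where the treated channel of Eng was above background only on the POF array. Ly6a (Sca-1), which is also interferon-induced, was at 1.10 and 2.23, Thy1 at -0.88 and -0.07, and Nt5e and Cd44 were above background in neither treated channel. Fat genes divided: Car3, carbonic anhydrase of adipocytes, was at -0.36 and 1.48 (2 probes) and Fabp4, the fatty acid carrier of adipocytes and macrophages, at -0.24 and 1.49, with Cy3 at -0.33 for both. The lipid droplet gene Plin1, by contrast, was at 0.18 and -0.32 and Pparg at 0.03 and -0.45, the 14 measured adipocyte genes had a median of -0.06, and Adipoq, Lep and Cidec were above background in neither treated channel. Whether fat adhering to the ovary or the grafted cells had a part in the Car3 and Fabp4 values was not tested.

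Matrix and trophic genes showed no common shift. Efemp1 (fibulin-3) was at -0.89 and 0.48, Eln (elastin) at -0.04 and 0.86 with Cy3 dim on both arrays, and Tnc, of healing tissue, at -0.09 and 0.45, while the fibrillar collagens Col1a1 and Col1a2 differed by -0.04 and -0.09 and the 34 genes had a median of -0.05. Matrix enzymes had a median of -0.10, with Timp1 at 0.22 and 0.67. Of 19 measured trophic ligands 9 were above 0 (median -0.04): Vegfa differed by 0.22, Igf1 by 0.24 and Angpt1, with Cy5 above background only on the ADSC-ovary array, by 0.72, and Hgf, Fgf2 and Bdnf were above background in neither treated channel. Endothelial markers had a median of -0.10, in which the lymphatic genes Mmrn1, at -1.33 and -0.44, and Lyve1, at -0.68 and -0.04, were higher and Nos3 lower. Of the other lymphatic genes on that list, Prox1 and Flt4 were above background in neither treated channel, and Pdpn only on the ADSC-ovary array, with log2 Cy5 intensities of 8.11 and 7.95. In smooth muscle genes the median was 0.19, and 13 of 16 lay above 0, with Acta2 differing by 0.02.

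Markers of tissue next to the ovary also differed. Ovgp1, the oviduct-specific glycoprotein, had the largest difference of any measured gene: it was at 4.02 on the POF array, 0.20 on the ADSC-ovary array and 0.12 on the ADSC-iv array, with Cy3 dim on both compared arrays. Its Cy5 difference was -3.62. Over the 10 measured oviduct and cilia genes the median ratio was 0.60 on the POF array and 0.30 on the ADSC-ovary array, with 7 below 0, and Epcam was at 0.81 and 0.07. The cilia regulator Foxj1 and Pax8 were above background in neither treated channel. Surface epithelium and mesothelium genes had a median of -0.16 over 11, and erythroid genes one of -0.17 over 9, with Hbb-b1 at 1.80 and 2.25 and Hba-a1 at 1.85 and 1.79. Their part in the other differences was not tested.

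Genes of general cell function moved by small amounts, some in common. The median was 0.15 for cytosolic ribosomal proteins (44 of 51 above 0) and 0.17 for the respiratory chain (45 of 58 above 0), while the proteasome subunits had a median of 0.09. The RPL5 control spots gave 0.22. Cell cycle genes (median 0.06) and heat shock genes (0.01), immediate early genes (0.04) and NF-kB pathway genes (-0.04) lay near 0, and each of these signs changed under at least 1 alternative. Ccnd1, the cyclin of growth entry, was at -0.97 and -0.21, and Birc5 (survivin) at -0.20 and 0.36. The p53 targets had a median of -0.19, in which Cdkn1a, the damage-induced cell cycle inhibitor, was at 1.27 and 1.08, Trp53 at 0.13 and -0.37, and the death receptor Fas at -0.09 and 1.05 with Cy3 dim on both arrays. In the BCL2 and caspase list (median 0.05) the inflammatory caspases Casp1, Casp4 and Casp12 differed by 0.91, 0.92 and 0.83. Glycolysis and hypoxia genes had a median of -0.06 and antioxidant genes one of 0.09, with Prdx1 at 0.54 and Nqo1 at -0.56.

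The ADSC-iv array, whose mice had the cells into a vein, gives values beside these; its difference from POF shares the POF array and is no independent comparison. For the 59 higher genes its median difference from POF was 0.39, and 11 reached 2-fold, and for the 14 lower genes it was -0.55, with 3 at 2-fold. Both sets were chosen with the POF values that this difference reuses, so medians of the same direction were favoured in advance. The share of all measured genes at 2-fold between ADSC-iv and POF is not given. Ccl8 was at 2.09 on the ADSC-iv array, between POF and ADSC-ovary, as were Cxcl9 at 2.30 and Ccl5 at 0.92. Ubd (-0.39), Cd274 (0.67), Ccl2 (0.46) and Irgm2 (1.54) on that array were below their POF values, whereas Lyz2 (1.62) was above its ADSC-ovary value. The median of GBP and IRG genes was -0.08 for ADSC-iv minus POF, beside 0.63 for ADSC-ovary minus POF. That of macrophage markers was 0.24 beside 0.74, and that of oocyte genes 0.79 beside 0.13. Lysosomal genes had close medians in both, -0.24 beside -0.22. Both subtract the same POF array, where the median ratio of these genes was 0.19, so the closeness tells nothing about the route of injection.

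**Figure D5:**
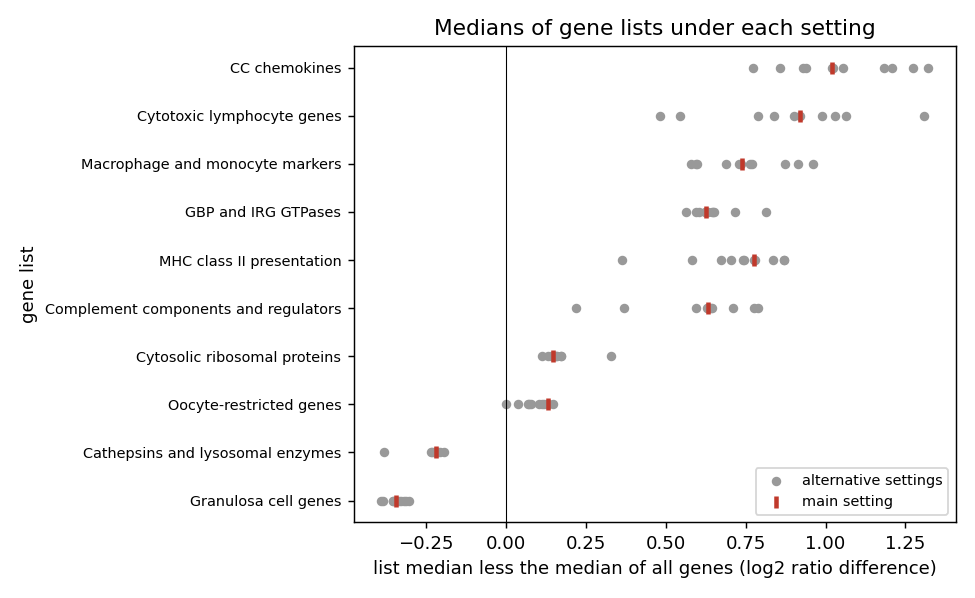
Medians of 10 gene lists (vertical axis) of the log2 ratio difference, less the median of all genes in the same setting (horizontal axis), under the main setting (red bar) and the alternatives (grey points). Granulosa genes stay below 0 and CC chemokines above 0 in every setting drawn, and oocyte genes fall just below 0 in the treated channel alone.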

How the data were processed

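RNA of mouse ovaries was compared on 3 two-colour spotted arrays, of which 2 enter the comparison. Per the labels, total RNA was extracted with Trizol, amplified by the Eberwine method and labelled with Klenow enzyme, and images were analysed with LuxScan 3.0. Per the file headers, the deposited scanner files hold spot and local background median intensity in each channel, not normalized, and a Cy5 over Cy3 ratio that equalled the ratio of the deposited spot medians within 1% in 100% of spots. The authors' deposited values are log2 ratios per spot, whose normalization is not given in the sources used here; they correlated with the log2 ratio of bright spots (over 500 units) with r of 0.982 (POF) and 0.957 (ADSC-ovary), with medians of 0.04 and 0.02, so scale and direction are known and the centring method is not. 1 column of that table was not used. The deposited background SD, also an intensity, served the detection rule, and the deposited flag, an other kind of value whose meaning is not stated, served an alternative that kept spots flagged 100.

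Spot medians were background-corrected (normexp, offset 50), normalized by loess within arrays, and their channels by Aquantile between arrays (limma 3.58.1, R 4.3.3), after a check on simulated data. A spot was above background where its median exceeded the background median by 2 background SDs. This held for 39.2% and 41.5% of gene probes in Cy5 and 34.5% and 36.3% in Cy3 (POF, ADSC-ovary), and for 0 blank spots. Probes of a gene were averaged. Of 19518 array names, 14166 were current symbols, 3898 were updated synonyms and 1454 kept their name, and 7528 of 31920 gene probes had no name. The number of arrays limits the precision. Named genes were the 15 highest and 15 lowest genes brighter than the median, with a current symbol, all channels above background, probes of 1 sign and a Cy5 difference at least 2 times the Cy3 difference, the 5 members of largest difference of each of 52 gene lists (all measured members where 10 or fewer), and the 5 largest bounds each way; the 29 others past 2-fold, further list members and bounds were named after their values were seen. The members and lists were chosen with earlier results of these data known. Some genes that the rule names are not reported here.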

Additional observations from a re-analysis of the deposited data

How the results depend on the processing

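No paired analysis was possible because each group had 1 array, and for the same reason no array could be left out. The counts of genes at least 2-fold higher and lower (59 and 14) became 48 and 68 with median centring, 52 and 9 without background correction, 251 and 214 with plain subtraction with a floor on low values, 37 and 8 with all 4 channels above background, 177 and 100 without the filter on dim genes, 39 and 8 with flag 100 only, 306 and 312 in the authors' values, and 133 and 49 in the treated channel alone. Print-tip loess, chosen after seeing the data, gave 57 and 12, a Cy3 difference under 0.5 gave 49 and 13, and medians of probes 59 and 14. The 59 higher genes were all higher by 2-fold also with that subtraction, and 50 of them in the authors' values, 46 with median centring and 41 in the treated channel. Chil3 reversed in the authors' values (-0.33, against 1.25); the cause was not tested. Of the 73 named genes past 2-fold, it was the only one whose sign changed under the alternatives that gave it a value, which were 8 to 11 for each gene. Of 49 list medians, 15 changed sign under at least 1 alternative, and those 15 lay between -0.17 (erythroid genes) and 0.13 (oocyte genes). With 1 array per group, the spread between animals is unknown, and genes dim in Cy3 have no level in untreated tissue.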

Other observations

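The 59 genes that were at least 2-fold higher lay on many chromosomes, with 9 on chromosome 11 (of 717 measured genes there), 7 on chromosome 3 (of 430) and 5 on chromosome 2 (of 682). Of Y-linked genes, Ddx3y had a log2 Cy5 intensity of 7.41, not above background, on the POF array and of 8.43, above background, on the ADSC-ovary array, Kdm5d (8.49 and 8.24) and Eif2s3y (7.47 and 7.67) were above background on both, and Uty, Zfy1 and Sry were above background on neither. Hybridisation of their probes to X-linked relatives was not tested.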
